A study of Mus musculus with 8 samples.

Results

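The B-type and C-type fibroblasts of the mouse lung were compared by gene expression array, using the 2 B-type samples (arrays B1 and B2) and the 2 C-type samples (C1 and C2) that the titles name, 4 of the 8 samples of the series. Both types were sorted by antibody from the lungs of adult female mice (strain C57BL/6, age 12 to 16 weeks) with no treatment named in the labels, and the series also holds A-type fibroblasts and the unsorted pulmonary single cells, with 2 samples each. The antibodies were directed against antigens of other lineages (E-cadherin for epithelium, CD31, CD146 and LYVE-1 for vessels, CD45 and TER119 for blood cells) and against 3 fibroblast antigens, THY-1, SCA-1 and PDGFRA. The sources used here do not give the pattern of these 3 that makes a cell B-type or C-type, or how many mice went into 1 sample. Each sample held 50000 cells, and 10 ng of its RNA was amplified before labelling, so a level is a share of the amplified material rather than a count of molecules per cell. All 4 arrays were on 1 slide and in 1 scan. The C-type arrays lay in row 1 of the slide and the B-type arrays in row 2, so that row and cell type cannot be told apart.

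Lung fibroblasts hold several resident populations. Alveolar fibroblasts lie in the thin walls between airspaces, next to alveolar epithelium and capillaries, and are marked in the mouse by nephronectin, integrin alpha 8 and the transcription factor Tcf21; some of them store retinoids and lipid. Adventitial fibroblasts lie in the sleeves of connective tissue around larger vessels and airways, carry the surface proteins SCA-1, DPP4 and CD34, and are rich in decorin, chemokines and IL-33. These populations provide the matrix of the lung and signals to epithelium, vessels and immune cells.

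Signals are given as log2 of the scanner's processed signal minus the array's 75th percentile, so that 0 is the level of that percentile and 1 unit is a doubling. A gene was tested if the scanner software called its probe well above background on both arrays of at least 1 of the compared types, which held for 15037 genes. The B-type arrays were close repeats, with 332 genes (2.21%) at least 2-fold apart. The C-type arrays were not, with 2810 genes (18.7%) at least 2-fold apart, and C2 was the dimmest fibroblast array (54.6% of spots well above background, against 60.6% on C1, 60.7% on B1 and 63.4% on B2). Each called gene named here is therefore given with C1 and C2 apart, as the signal on each array, as the difference of the B-type mean from each, or by whether each was above background.

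In limma, with all 8 arrays in 1 fit of the group means, 535 of 15037 genes (3.56%) differed between B-type and C-type fibroblasts at a Benjamini-Hochberg adjusted p under 0.05. Of these, 285 (1.90%) were higher in B-type and 250 (1.66%) were lower in B-type, that is, higher in C-type. The smallest called differences were 1.32 and -1.31 on the log2 scale. A fitted difference of 4-fold or more, with no floor applied, was seen in 214 of the higher and 177 of the lower calls. Of the 285 higher calls, 95 were above background on neither C-type array and 41 on only 1 of them. Of the 250 lower calls, 49 were above background on neither B-type array and 16 on only 1, so many of these folds rest on signals below background. Both B-type arrays lay above both C-type arrays for 31.9% of all genes and below both for 24.4%, so separation of the arrays alone is common here. The median log2 difference over all genes was 0.08. Leaving out B1 reduced the 535 calls to 62 in all and leaving out B2 to 60, whereas 1063 genes were called without C1 and 278 without C2; a single array then stands for its type and is assumed to vary like the other groups. Of the 535 genes, 61 remained called in the same direction without B1, 60 without B2, 434 without C1 and 225 without C2. The p-values rest on 1 spread per gene that all 4 groups share, between samples that the labels call independently prepared. The groups were unequal in this: 2.79% of genes were at least 2-fold apart in A-type and 30.6% in the unsorted cells, whose arrays were on another slide and scan. Without B1 or without B2, the close B-type pair no longer enters the shared spread, so those counts do not measure the B-type arrays alone.

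**Figure D1:**
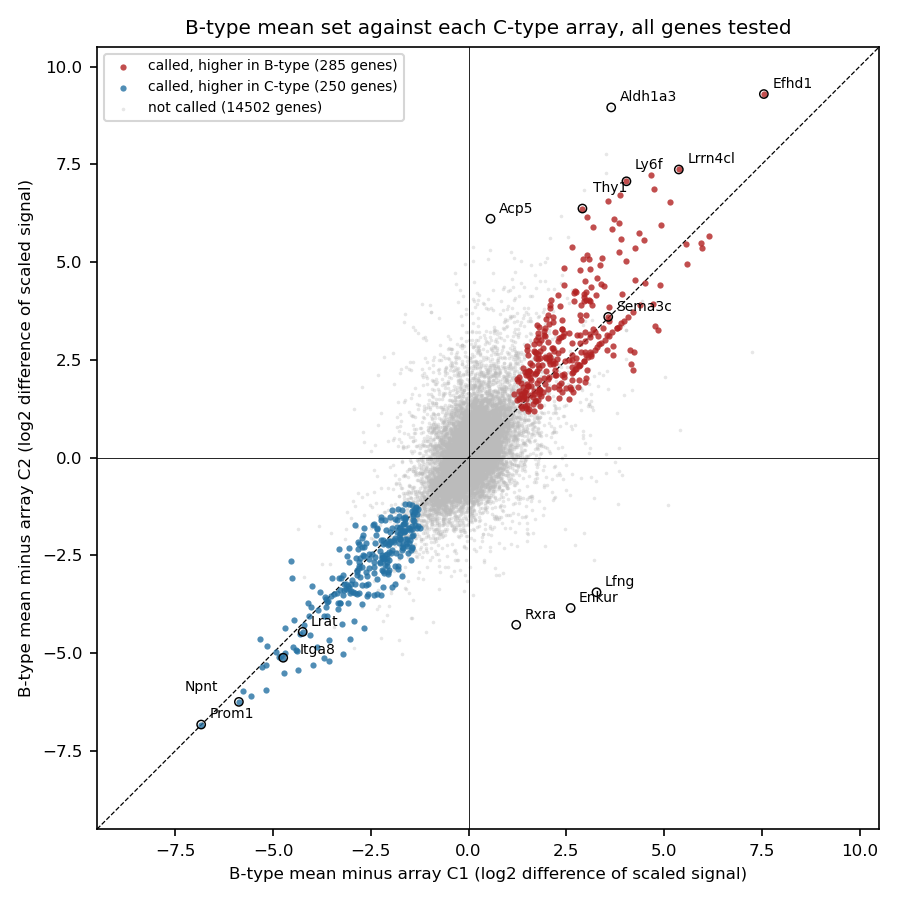
Each point is 1 of the 15037 genes: the B-type mean minus array C1 (horizontal axis) against the B-type mean minus array C2 (vertical axis), both as log2 differences of scaled signal. The 285 genes called higher in B-type are red, the 250 called higher in C-type blue and the others grey; the dashed line marks equal values, and some genes named in the text are circled. Npnt, Itga8 and Prom1 lie near the line, whereas Ly6f, Thy1 and Aldh1a3 lie above it because C2 read lower than C1.

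Of the antigens used in the sort, the transcripts of SCA-1 and THY-1 were higher in B-type. Ly6a, which encodes SCA-1, had log2 signals of 6.74 and 6.58 on B1 and B2, against 2.93 and 0.57 on C1 and C2, a difference of 4.91 (SE 0.68, limma adjusted p = 0.0124). Thy1 had log2 signals of 4.91 and 4.63 on the B-type arrays and 1.85 and -1.60 on the C-type arrays, a difference of 4.64 (SE 0.96) that only just passed (limma adjusted p = 0.0499). Neither gene's arrays overlapped between the types, and both read higher on C1 than on C2. Neither remained called without B1 or without B2, and both remained called without C1 or without C2. Pdgfra, the receptor for platelet-derived growth factor A chains, read 3.48 and 3.55 in B-type and 4.17 and 4.44 in C-type and did not pass (log2 difference -0.79, limma adjusted p = 0.187). The sort itself selected on these proteins, so their transcripts are a check on the groups and not an independent finding. Among the genes of the lineage antigens, Cdh1 (E-cadherin) and Lyve1 were not well above background on any of the 4 arrays. Pecam1 (CD31) read -2.47 and -2.25 in B-type and -2.78 and -4.02 in C-type, and Ptprc (CD45) -1.18 and -1.65 in B-type and -1.16 and -0.56 in C-type, neither passing the test. Mcam, the gene of the CD146 antigen used for lineage exclusion, was bright on its probe in both types, with log2 signals of 8.49 and 8.57 in B-type and 8.49 and 8.68 in C-type.

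Alveolar fibroblast markers were higher in C-type. Of the 22 genes on this list, 20 were tested. Among them, 11 were lower in B-type, where 1.66% of all genes were, and 0 were higher. The list was chosen with earlier results of these data known, so these shares are not a like-for-like comparison. The median log2 difference of the tested members was -2.09, against 0.08 over all genes, and both C-type arrays lay above both B-type arrays for 18 of them (24.4% of all genes). Npnt encodes nephronectin, a basement membrane protein, and Itga8 the alpha chain of the integrin that binds it. Their upstream sequences, 250 bases before the RefSeq gene start in GRCm38.p6, are shown because these 2 partner genes had some of the greatest differences; both lie on the minus strand, Npnt at chr3:132950292-132950541 and Itga8 at chr2:12301945-12302194, and capitals mark GC boxes (GGGCGG, either strand) and CCAAT boxes.
Npnt: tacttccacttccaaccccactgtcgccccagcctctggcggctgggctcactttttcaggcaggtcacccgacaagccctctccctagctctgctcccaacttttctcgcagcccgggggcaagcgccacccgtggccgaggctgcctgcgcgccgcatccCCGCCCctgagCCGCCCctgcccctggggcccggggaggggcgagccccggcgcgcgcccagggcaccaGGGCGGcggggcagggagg
Itga8: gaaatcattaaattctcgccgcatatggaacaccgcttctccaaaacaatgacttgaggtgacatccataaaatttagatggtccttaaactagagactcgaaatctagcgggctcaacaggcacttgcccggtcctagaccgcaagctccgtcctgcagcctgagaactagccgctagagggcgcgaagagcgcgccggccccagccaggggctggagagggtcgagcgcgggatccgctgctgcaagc
The Npnt stretch holds 3 GC boxes and is 74.0% G or C, while the Itga8 stretch holds 0 and is 56.4% G or C; 32.7% of all 32851 RefSeq promoter windows of this length hold a GC box. Neither stretch holds CCAAT (in 33.8% of all windows, either strand) or TATAAA (in 12.4%), and the E-box letters CANNTG occurred 2 times upstream of Itga8 and 0 times upstream of Npnt (in 66.2% of windows).

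Npnt had log2 signals of -0.09 and 0.37 on B1 and B2, against 6.01 and 6.39 on C1 and C2. This is a difference of -6.06 (SE 0.29, limma adjusted p = 0.000977), or 66.7-fold lower in B-type, and another kept probe of the gene gave -5.98. Itga8 read -0.09 and 0.33 on the B-type arrays and 4.86 and 5.24 on the C-type arrays, 30.5-fold lower in B-type (log2 difference -4.93, SE 0.33, limma adjusted p = 0.00186). For both partners C1 and C2 lay within 0.5 log2 units of each other, well apart from B-type. The amino acid transporter Slc38a5 followed with 0.93 and 0.78 in B-type and 4.52 and 4.42 in C-type, 12.2-fold lower in B-type (limma adjusted p = 0.00194). Limch1, an activator of non-muscle myosin, read 1.55 and 1.54 in B-type and 4.76 and 5.06 in C-type, 10.3-fold lower in B-type (limma adjusted p = 0.00367). Bmp3, a member of the BMP family that antagonises other BMPs, and Gyg, which primes glycogen synthesis, were 9.77-fold and 8.32-fold lower in B-type. From C1 and from C2, the log2 differences were -3.50 and -3.08 in Bmp3 and -2.97 and -3.14 in Gyg. The extracellular matrix genes Frem1 and Spon1 were 7.28-fold and 5.21-fold lower, the carboxylesterase Ces1d 5.67-fold, the cytoskeletal linker Macf1 5.01-fold and the FGF receptor Fgfr4 3.43-fold, all passing the test. Against C1 and C2 in turn, the log2 differences were -3.06 and -2.67 in Frem1, -2.17 and -2.59 in Spon1, -2.73 and -2.28 in Ces1d, -2.27 and -2.38 in Macf1 and -1.66 and -1.90 in Fgfr4, so that either C-type array could be the nearer one. Tcf21 did not pass, with log2 signals of 3.11 and 2.64 in B-type and 3.80 and 3.27 in C-type, nor did the methyltransferase Inmt (6.83 and 6.55 in B-type and 7.73 and 7.69 in C-type). C1 was above C2 for 9 of the 20 markers, so neither C-type array was the higher one throughout. Of the 11 calls on this list, 5 remained without B1, 5 without B2, 11 without C1 and 9 without C2.

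Adventitial fibroblast markers were higher in B-type. All 26 genes of this list were tested. Of these, 12 were higher in B-type, where 1.90% of all genes were, and 1, Tnfsf13b, was lower. The 12 include Ly6a, the gene of a sorting antigen, and the list was chosen with earlier results of these data known. These shares are therefore not a like-for-like comparison. Both B-type arrays lay above both C-type arrays for 23 of the 26 (31.9% of all genes), and the median log2 difference was 1.60, against 0.08 over all genes. Dpp4, a surface peptidase, had log2 signals of 1.38 and 1.45 on B1 and B2, against -3.34 and -5.46 on C1 and C2, where only C1 was well above background. With C2 set no lower than the dimmest signal above background this is 28.1-fold higher in B-type (limma adjusted p = 0.00658). Anxa3, an annexin, read 1.17 and 1.33 in B-type and -2.03 and -3.35 in C-type, again measured on C1 only (15.3-fold with the same floor, limma adjusted p = 0.00905). The alarmin Il33 read 4.10 and 4.11 in B-type and 1.14 and -0.40 in C-type, 13.3-fold higher in B-type (limma adjusted p = 0.0126). The guidance ligand Sema3c had 3.13 and 3.31 in B-type and -0.35 and -0.38 in C-type, so that here C1 and C2 read alike (12.0-fold, limma adjusted p = 0.00194). The eotaxin gene Ccl11 read 3.88 and 4.01 in B-type and 1.24 and -0.06 in C-type, 10.2-fold higher in B-type, and Cd248, a surface protein of perivascular fibroblasts, read 5.97 and 5.72 in B-type against 2.99 and 2.92 in C-type, 7.42-fold higher. Decorin (Dcn) was 5.14-fold higher, the hyaluronan synthase Has1 2.79-fold and the matrix protein dermatopontin (Dpt) 2.66-fold, all passing the test. The log2 differences from C1 and from C2 were 1.71 and 3.01 in Dcn, 1.37 and 1.59 in Has1 and 1.30 and 1.52 in Dpt, each wider from C2, and Tnfsf13b, a B cell survival factor, read 1.19 and 1.27 in B-type and 2.92 and 2.56 in C-type. Pi16, a marker of adventitial fibroblasts across organs, read 3.79 and 3.67 in B-type and 2.75 and 2.12 in C-type, and Cd34 6.02 and 5.80 in B-type and 4.62 and 4.35 in C-type; in both the B-type arrays were above the C-type arrays but neither gene passed. C1 was above C2 for 24 of the 26 markers, and the median difference of B-type was 1.36 from C1 and 1.83 from C2. Of the 13 calls on this list, 1 remained without B1, 2 without B2, 11 without C1 and 8 without C2.

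**Figure D2:**
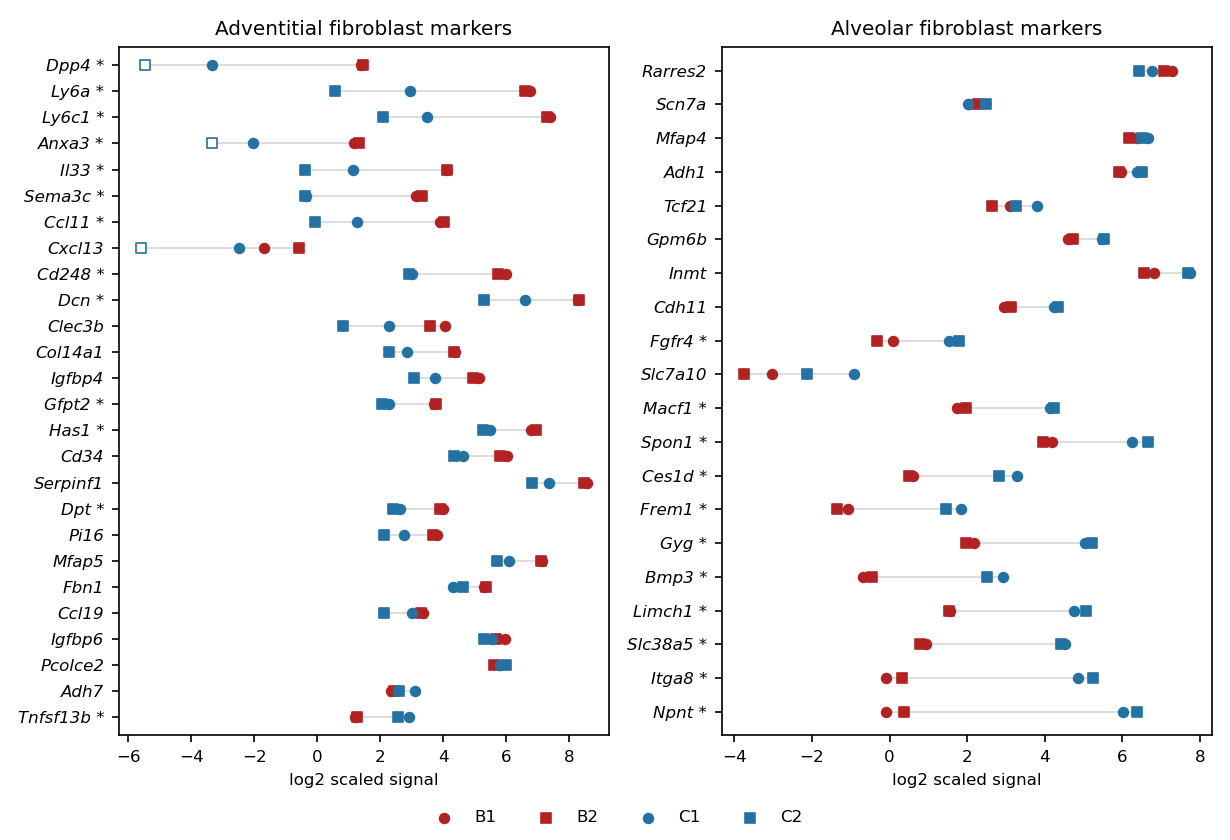
Log2 scaled signal on each array for the 26 adventitial (left) and 20 alveolar (right) fibroblast markers that were tested, ordered by the difference of B-type minus C-type. Red symbols are B-type and blue symbols C-type arrays (circle, replicate 1; square, replicate 2), open symbols were not well above background, and * marks a called gene. C2 lies below C1 for most adventitial markers, whereas C1 and C2 lie close together for Npnt and Itga8.

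The Ly6 genes of chromosome 15, a cluster of small lipid-anchored surface proteins that includes SCA-1, were examined after their values were seen. Of the 10 tested, 5 were higher in B-type, where 1.90% of all genes were, and 0 lower. The 5 include Ly6a, the gene of a sorting antigen. Besides Ly6a, Ly6c1 (a Ly6C antigen) had log2 signals of 7.38 and 7.30 on B1 and B2, against 3.48 and 2.08 on C1 and C2, 23.5-fold higher in B-type (SE 0.46 on the log2 scale, limma adjusted p = 0.00380); another kept probe gave a log2 difference of 4.34. Ly6g, best known as a neutrophil antigen, read 2.25 and 1.99 in B-type and -2.14 and -3.24 in C-type, with C1 alone above background in C-type (28.0-fold with the floor, limma adjusted p = 0.00413). Ly6f read 2.45 and 2.18 in B-type and -1.72 and -4.75 in C-type, again above background on C1 but not C2 (30.0-fold with the floor, limma adjusted p = 0.0175). Ly6a2 was not above background on either C-type array and was at least 5.46-fold higher in B-type (limma adjusted p = 0.00367). Ly6e, another gene of the cluster, read 5.36 and 5.25 in B-type and 4.54 and 4.04 in C-type and did not pass, nor did the 4 others tested. None of the 5 calls remained without B1 or without B2, and all 5 remained without C1 or without C2. The called genes lie at 74994877 (start of Ly6a) to 75272237 (end of Ly6f) on chromosome 15 of GRCm38.p6. Between the array probes of any 2 Ly6 genes the longest shared run was 9 of 60 bases; matches of these probes to the other genes' transcripts were not tested.

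The upstream sequences of Ly6c1, Ly6f and Ly6g are shown because these 3 called genes share a promoter stretch. Each is the 250 bases before a RefSeq start in GRCm38.p6, read 5′ to 3′ on the gene's strand: Ly6c1 at chr15:75048838-75049087 (minus), Ly6f at chr15:75268171-75268420 (plus) and Ly6g at chr15:75155011-75155260 (plus). For Ly6c1 and Ly6f the annotated gene begins further 5′ than the start used, at 75048920 and 75268372. The 3′ end of these stretches therefore lies inside the gene. Capitals mark the longest run that all 3 hold.
Ly6c1: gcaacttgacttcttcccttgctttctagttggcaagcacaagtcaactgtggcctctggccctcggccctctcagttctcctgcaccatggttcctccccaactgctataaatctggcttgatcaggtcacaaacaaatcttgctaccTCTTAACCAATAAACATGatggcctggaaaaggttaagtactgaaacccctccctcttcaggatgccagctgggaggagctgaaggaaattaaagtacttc
Ly6f: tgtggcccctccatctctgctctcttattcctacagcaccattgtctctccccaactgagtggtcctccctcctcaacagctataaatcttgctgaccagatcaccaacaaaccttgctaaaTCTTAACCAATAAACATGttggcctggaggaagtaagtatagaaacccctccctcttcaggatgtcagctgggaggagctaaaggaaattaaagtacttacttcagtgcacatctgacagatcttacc
Ly6g: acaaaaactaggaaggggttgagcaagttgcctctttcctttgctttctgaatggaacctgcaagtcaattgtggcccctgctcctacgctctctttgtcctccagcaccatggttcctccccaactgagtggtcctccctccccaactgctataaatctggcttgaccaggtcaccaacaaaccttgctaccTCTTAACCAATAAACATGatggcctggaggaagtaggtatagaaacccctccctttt
The shared run of 18 bases contains CCAAT and occurred upstream of 3 genes, these ones, among all 32851 windows. Each of the 3 stretches also holds TATAAA 1 time and no GC box. No entry for Ly6a was matched.

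Retinoid genes differed in both directions. Of 15 tested, 1 was higher and 2 were lower in B-type, where 1.90% of all genes were higher and 1.66% lower. Lrat, which esterifies retinol for storage, had log2 signals of 1.10 and 1.25 in B-type, against 5.42 and 5.63 in C-type, 20.4-fold lower in B-type (SE 0.32 on the log2 scale, limma adjusted p = 0.00194). Aldh1a1, a retinaldehyde dehydrogenase, read 3.79 and 3.64 in B-type and 6.81 and 7.0 in C-type, 9.13-fold lower (limma adjusted p = 0.00351). Its relative Aldh1a2 went the other way, with 2.14 and 1.87 in B-type and -1.07 and -3.08 in C-type, 17.0-fold higher (limma adjusted p = 0.0148). Aldh1a3, the remaining family member, read 3.34 and 3.25 in B-type, but -0.36 on C1 and -5.66 on C2, where it was not above background, and did not pass (limma adjusted p = 0.0784). Both C-type arrays were thus the lower ones for Aldh1a2 and Aldh1a3 and the higher ones for Lrat and Aldh1a1. Of the 3 calls on this list, 1 remained without B1, 1 without B2, 3 without C1 and 3 without C2. None of the 15 lipid storage genes passed in limma after adjustment, and 5 had an unadjusted p under 0.05. Over all 15037 genes, 2462 had an unadjusted limma p under 0.05.

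Genes of the fibrillar collagens passed the test in 1 case of 13 tested, 7.69% against 3.56% of all genes. This was Col27a1, 5.26-fold lower in B-type (0.79 and 0.86 in B-type and 3.03 and 3.40 in C-type, limma adjusted p = 0.0169). Col1a1 read 5.87 and 5.42 in B-type and 4.89 and 5.22 in C-type, and Col3a1 7.10 and 6.90 in B-type and 6.65 and 6.79 in C-type, neither passing. Among other collagens, Col13a1, a transmembrane collagen, was not above background on either B-type array (-4.50 and -3.86) and read 0.50 and 0.81 in C-type, at least 23.3-fold lower in B-type (limma adjusted p = 0.00194). Col8a1, a short-chain network collagen and the other call of that list, was 4.35-fold higher in B-type, with 0.25 and 0.80 in B-type and -0.97 and -2.23 in C-type, and only just passed (limma adjusted p = 0.04999). Of the 23 elastic fibre genes, 1 passed, which at 4.35% is near the 3.56% of all genes. This was Ltbp2, a microfibril-associated protein, lower in B-type (0.31 and 0.12 in B-type and 2.10 and 2.98 in C-type, 5.03-fold, limma adjusted p = 0.0394). The others did not pass, elastin (Eln) included, at 7.03 and 6.77 in B-type and 7.54 and 7.96 in C-type. The small leucine-rich proteoglycans, which bind collagen fibrils, had 3 of 11 members higher in B-type and 0 lower, 27.3% called against 3.56% of all genes. These were decorin, lumican (Lum, 6.79-fold) and asporin (Aspn, 4.04-fold). Lum read 5.70 and 5.67 in B-type, against 3.70 on C1 and 2.14 on C2. Asporin read 2.86 and 2.95 in B-type and 0.88 and 0.90 in C-type, with both C-type arrays alike. Without B1 or B2 in turn, 0 and 0 of these 3 calls remained, without C1 3 and without C2 1. The Col13a1 call remained without each of the 4 arrays in turn. Col27a1, Ltbp2 and Col8a1 remained called without C1 only.

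Matricellular proteins, which modulate cell contact with the matrix, split by family member. Thrombospondin 1 (Thbs1), an activator of latent TGF-beta, had log2 signals of 2.86 and 3.48 in B-type, against 6.36 and 6.39 in C-type, 9.22-fold lower in B-type (limma adjusted p = 0.00367). Its relative Thbs2 read 0.72 and 0.55 in B-type and -2.48 and -4.19 in C-type, with C2 not above background, 12.2-fold higher with the floor (limma adjusted p = 0.0104). The tenascins differed likewise: tenascin C (Tnc) was not above background in B-type and read -1.85 and -2.59 in C-type, at least 3.29-fold lower in B-type, while tenascin XB (Tnxb) read 3.67 and 3.27 in B-type and 1.78 and 2.01 in C-type, 2.98-fold higher. With Spon1, 2 of the 21 tested members of the list were higher and 3 lower in B-type, 23.8% against 3.56% of all genes. Of the 5 calls on this list, 0 remained without B1, 1 without B2, 4 without C1 and 4 without C2.

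Among matrix proteases and their inhibitors, 5 of 27 were lower and 1 higher in B-type, 22.2% called against 3.56% of all genes. Plau, the urokinase plasminogen activator, had log2 signals of 1.75 and 1.91 in B-type, against -2.83 on C1 and -5.41 on C2, where it was not above background (31.6-fold higher with the floor, limma adjusted p = 0.00807). Serpine2, an inhibitor of urokinase and thrombin, showed the opposite order, with -0.56 and -0.50 in B-type and 3.13 and 3.29 in C-type (13.3-fold lower in B-type, limma adjusted p = 0.00517). The ADAMTS proteases Adamts8, Adamts9 and Adamts15 were 5.14-fold, 5.56-fold and 3.31-fold lower in B-type, and Adamtsl2, a non-catalytic relative, 4.37-fold lower. From C1 and from C2 these log2 differences were -2.22 and -2.50 in Adamts8, -2.48 and -2.47 in Adamts9, -1.45 and -2.0 in Adamts15 and -2.04 and -2.21 in Adamtsl2. Mmp2 read 5.11 and 4.80 in B-type and 5.13 and 5.57 in C-type and did not pass. Of the 6 calls on this list, 0 remained without B1, 0 without B2, 6 without C1 and 4 without C2. Of 13 hyaluronan genes, 15.4% were called, against 3.56% of all genes. These were Has1 and Itih5, whose product belongs to the inter-alpha-trypsin inhibitor heavy chains that bind hyaluronan, both higher in B-type. Itih5 read 1.03 and 1.49 in B-type and -1.50 and -1.89 in C-type (7.75-fold, limma adjusted p = 0.00367).

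Itga8 was the one integrin subunit of 15 that passed on the probes tested (6.67%, against 3.56% of all genes). For Itgb3, the beta chain of vitronectin and fibrinogen receptors, the probe tested read 2.25 and 1.72 in B-type and 1.70 and 1.30 in C-type, whereas its other kept probe, which was not tested, gave a log2 difference of 3.46. In the guidance and adhesion list, 2 of 24 were higher and 3 lower in B-type, 20.8% called against 3.56% of all genes. The neuronal cell adhesion molecule Nrcam had log2 signals of -0.68 and -0.27 in B-type, against 3.93 and 4.45 in C-type, 25.4-fold lower in B-type (limma adjusted p = 0.00235). Slit2 and Robo2, a secreted ligand and a receptor of the slit family, were both lower in B-type, by 3.61-fold and 4.44-fold (log2 differences from C1 and C2 of -1.76 and -1.95 in Slit2 and of -2.20 and -2.10 in Robo2). The semaphorin receptor and VEGF co-receptor Nrp2 read 1.41 and 1.85 in B-type and 4.68 and 4.96 in C-type (9.10-fold lower, limma adjusted p = 0.00276), opposite in direction to the semaphorin ligand Sema3c. Sema3d, another ligand of the class, read 2.22 and 2.56 in B-type and 1.16 and 0.39 in C-type, 3.07-fold higher. Of the 5 calls on this list, 2 remained without B1, 2 without B2, 4 without C1 and 2 without C2.

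**Figure D3:**
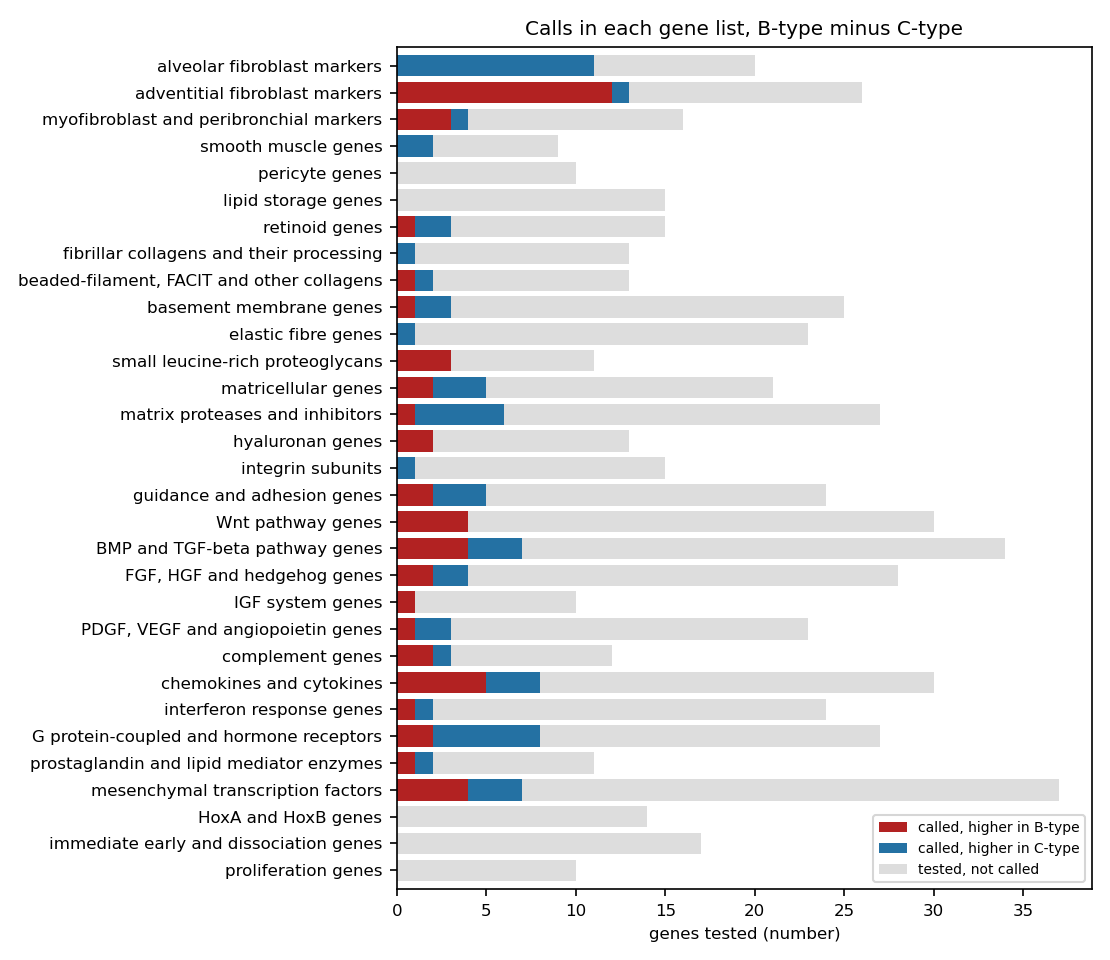
Number of tested genes in each list that were called higher in B-type (red), called higher in C-type (blue) or not called (grey) in the comparison of B-type minus C-type. The background over all genes is 1.90% higher and 1.66% lower in B-type. Of the alveolar markers 11 of 20 are blue, and of the adventitial markers 12 of 26 are red. The lists were chosen with earlier results of these data known.

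The Wnt pathway genes that passed were higher in B-type. Of 30 tested Wnt pathway genes, 4 were higher and 0 lower in B-type, all of them ligands or extracellular modulators. This is 13.3% called, against 3.56% of all genes. Both B-type arrays lay above both C-type arrays for 13 of the 30 and below both for 10. Sfrp4, a secreted frizzled-related protein that binds Wnts, had log2 signals of 3.49 and 3.62 in B-type, against 0.09 and -0.84 in C-type, 15.3-fold higher (SE 0.36 on the log2 scale, limma adjusted p = 0.00329). Sfrp2 of the same family read 2.15 and 2.03 in B-type and -0.54 and -0.52 in C-type, 6.16-fold higher with both C-type arrays alike. The ligand Wnt2b was 4.45-fold higher (4.47 and 4.15 in B-type and 2.11 and 2.20 in C-type, limma adjusted p = 0.0131). Rspo1, an R-spondin that strengthens Wnt signals, read 1.03 and 0.70 in B-type, against -1.25 on C1 and -3.16 on C2, where it was not above background (8.40-fold higher with the floor, limma adjusted p = 0.0440). The target gene Axin2 did not pass, with 0.94 and 0.76 in B-type and 1.64 and 1.76 in C-type. Of the 4 calls on this list, 1 remained without B1, 0 without B2, 4 without C1 and 1 without C2.

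BMP ligands divided between the types. Of 34 tested genes of the BMP and TGF-beta pathways, 4 were higher and 3 lower in B-type, 20.6% called against 3.56% of all genes. The ligands Bmp3, Bmp5 and Bmp7 were lower in B-type: Bmp5 read 0.19 and 0.40 in B-type and 2.91 and 2.47 in C-type (5.26-fold, limma adjusted p = 0.00658), and Bmp7 read -2.86 and -3.07 in B-type and -0.15 and -0.81 in C-type (5.61-fold, limma adjusted p = 0.0118). Bmp6 was not above background on C1 or C2 and was at least 8.75-fold higher in B-type (-0.26 and -0.44, limma adjusted p = 0.0106). Follistatin (Fst), which binds activins and some BMPs, read -0.24 and -0.24 in B-type, against -3.36 on C1 and -4.61 on C2, where it was not above background (9.03-fold higher with the floor). Gdf10 and the response gene Id2 were 2.54-fold and 5.08-fold higher in B-type, with log2 differences from C1 and C2 of 1.23 and 1.46 in Gdf10 and of 2.06 and 2.63 in Id2. The other 27 members, the TGF-beta ligands and receptors tested among them, did not pass. Of the 7 calls on this list, 1 remained without B1, 1 without B2, 7 without C1 and 4 without C2.

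Of the tested FGF, HGF and hedgehog genes, 2 ligands were higher and 2 receptors lower in B-type. The ligand Fgf18 had log2 signals of 1.71 and 1.91 in B-type, against -2.08 and -3.77 in C-type, above background on C1 only (23.9-fold higher with the floor, limma adjusted p = 0.00510), and another probe gave a log2 difference of 3.83. Fgf9, known in lung development as a mesothelial and epithelial signal, read -1.60 and -1.88 in B-type and was not above background in C-type, at least 3.78-fold higher (limma adjusted p = 0.00267). The receptors Fgfr3 and Fgfr4 were lower in B-type: Fgfr3 read 0.49 and 0.38 in B-type and 2.57 and 2.63 in C-type (4.48-fold, limma adjusted p = 0.0175), with a median of -1.09 on the log2 scale over its other kept probes. The ligand Fgf10 read 1.74 and 1.84 in B-type and 2.98 and 2.95 in C-type, and Hgf -0.74 and -0.68 in B-type and 1.23 and 1.65 in C-type, neither passing. These 4 calls were the only ones among 28 FGF, HGF and hedgehog genes (14.3%, against 3.56% of all genes). In the IGF and vascular growth factor lists that follow, 10.0% and 13.0% were called. Of the 4 calls on this list, 1 remained without B1, 1 without B2, 4 without C1 and 2 without C2. Of 10 IGF system genes, Igfbp5, a binding protein for insulin-like growth factors, was higher in B-type (6.25 and 6.14 in B-type and 3.02 and 2.91 in C-type, 9.36-fold, limma adjusted p = 0.00276) and remained called without each of the 4 arrays in turn. Among 23 vascular growth factor genes, angiopoietin 2 (Angpt2) was 5.59-fold lower and placental growth factor (Pgf) 4.61-fold higher in B-type beside Nrp2, given above, with Angpt2 reading -0.12 and 0.38 in B-type and 2.40 and 2.82 in C-type and Pgf 2.20 and 2.35 in B-type and 0.59 and -0.45 in C-type. Angpt2 and Pgf remained called without C1 but lost the call without B1, without B2 or without C2.

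**Figure D4:**
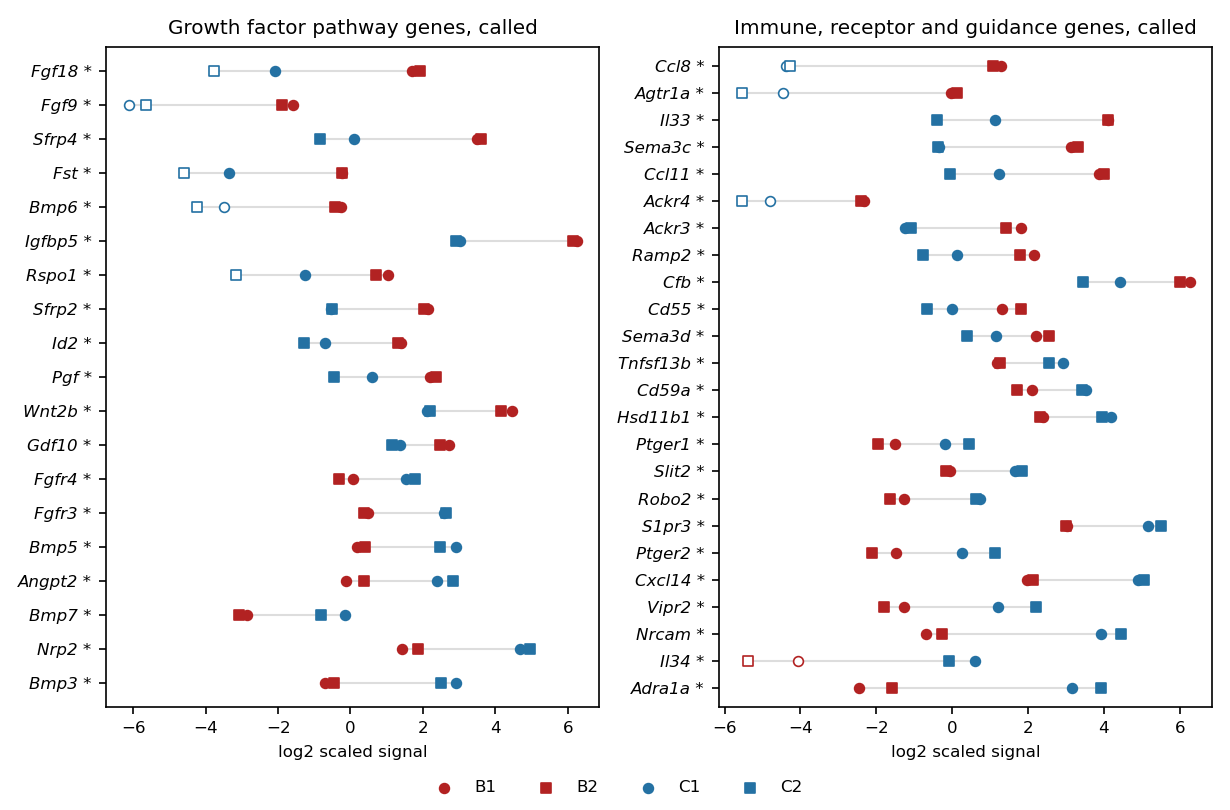
Log2 scaled signal on each array for the called genes of the growth factor lists (left) and of the immune, receptor and guidance lists (right), ordered by the difference of B-type minus C-type. Red symbols are B-type and blue symbols C-type arrays (circle, replicate 1; square, replicate 2), and open symbols were not well above background. The C-type arrays of Fgf9, Bmp6, Ccl8, Agtr1a and Ackr4 and the B-type arrays of Il34 are open.

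Chemokine and cytokine genes were called in both directions, 5 of 30 higher and 3 lower in B-type, 26.7% against 3.56% of all genes. The complement and interferon response lists below had 25.0% and 8.33% called. Ccl8, a chemoattractant of monocytes and other leukocytes, had log2 signals of 1.30 and 1.09 in B-type and was not above background in C-type (-4.38 and -4.26), at least 28.8-fold higher (limma adjusted p = 0.00158). Of the atypical receptors that remove chemokines, Ackr3 read 1.81 and 1.42 in B-type and -1.25 and -1.08 in C-type (6.88-fold higher), and Ackr4 was not above background on either C-type array (at least 2.46-fold higher). Ackr2, which is outside the list, read 1.87 and 1.93 in B-type and -3.03 and -4.04 in C-type (35.5-fold higher with the floor, limma adjusted p = 0.00276; another probe gave a log2 difference of 1.81). In the other direction, Il34, a ligand of the macrophage receptor CSF1R, was not above background in B-type (-4.07 and -5.39) and read 0.61 and -0.09 in C-type, at least 18.3-fold lower in B-type (limma adjusted p = 0.00557). Cxcl14 read 1.97 and 2.13 in B-type and 4.91 and 5.05 in C-type, 7.62-fold lower (limma adjusted p = 0.0232). Of the 8 calls on this list, 2 remained without B1, 1 without B2, 7 without C1 and 5 without C2. In the complement list, 2 of 12 were higher and 1 lower in B-type: factor B (Cfb) and the decay accelerator Cd55 were 4.59-fold and 3.68-fold higher, and Cd59a, a membrane inhibitor of the lytic complex, 2.96-fold lower. From C1 and from C2 the log2 differences were 1.70 and 2.70 in Cfb, 1.55 and 2.21 in Cd55 and -1.62 and -1.51 in Cd59a. None of the 3 remained called without B1, without B2 or without C2, and Cfb and Cd55 remained called without C1. The interferon response list had 2 calls among 24, Mx1 at least 2.92-fold lower in B-type, where it was not above background, against -2.40 and -2.39 in C-type, and Oas1a at least 2.37-fold higher in B-type, with neither C-type array above background. Of the 2 calls on this list, 0 remained without B1, 0 without B2, 1 without C1 and 1 without C2.

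Most of the called genes on the receptor list were higher in C-type. Over the whole list the median log2 difference was 0.03, with 10 genes higher on both B-type arrays and 10 higher on both C-type arrays. Of 27 genes in the list of G protein-coupled and hormone receptors, 6 were lower and 2 higher in B-type. This is 29.6% called, against 3.56% of all genes, and the lipid mediator enzymes below had 18.2%. The alpha 1A adrenergic receptor Adra1a had log2 signals of -2.46 and -1.58 in B-type, against 3.15 and 3.94 in C-type, 47.3-fold lower in B-type (SE 0.41 on the log2 scale, limma adjusted p = 0.00194). Vipr2, a receptor for vasoactive intestinal peptide, read -1.28 and -1.80 in B-type and 1.20 and 2.22 in C-type, 9.49-fold lower (limma adjusted p = 0.00877). The sphingosine-1-phosphate receptor S1pr3 and the prostaglandin E receptors Ptger2 and Ptger1 were 4.95-fold, 5.63-fold and 3.61-fold lower in B-type. Their log2 differences from C1 and from C2 were -2.14 and -2.48 in S1pr3, -2.06 and -2.93 in Ptger2 and -1.52 and -2.18 in Ptger1, wider from C2 in all 3. Agtr1a, the angiotensin II receptor, went the other way: it read -0.04 and 0.13 in B-type and was not above background in C-type, at least 13.0-fold higher (limma adjusted p = 0.00194). Hsd11b1, which regenerates active glucocorticoid and is carried on the same list, read 2.39 and 2.33 in B-type and 4.19 and 3.94 in C-type, 3.27-fold lower. Of the 8 calls on this list, 2 remained without B1, 2 without B2, 8 without C1 and 3 without C2. Of the lipid mediator enzymes, the phospholipase Pla2g4a was 4.77-fold higher and autotaxin (Enpp2) 4.10-fold lower in B-type, among 11 tested (log2 differences from C1 and C2 of 2.05 and 2.46 in Pla2g4a and of -1.91 and -2.15 in Enpp2). Of the 2 calls on this list, 0 remained without B1, 0 without B2, 2 without C1 and 1 without C2.

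Transcription factors of the mesenchyme were called in both directions, 4 of 37 higher and 3 lower in B-type, 18.9% against 3.56% of all genes. The T-box genes Tbx2 and Tbx4, which act in lung mesenchyme and trachea development, were lower in B-type: Tbx2 read -0.62 and -0.68 in B-type and 1.90 and 2.17 in C-type (6.42-fold, limma adjusted p = 0.00508), and Tbx4 read 2.01 and 1.79 in B-type and 3.87 and 4.05 in C-type (4.18-fold, limma adjusted p = 0.0234). Foxf2 read 0.58 and 0.53 in B-type and 2.62 and 2.68 in C-type, 4.27-fold lower. Ebf1, known from B cells and adipocyte and stromal precursors, had log2 signals of 0.20 and 0.11 in B-type, against -3.39 and -2.98 in C-type (10.2-fold higher, limma adjusted p = 0.00248). Ebf2, its relative, was not above background in C-type and at least 8.13-fold higher in B-type (-0.39 and -0.87, limma adjusted p = 0.00351). Foxd1 read 0.05 and 0.14 in B-type, against -4.07 on C1, where it was not above background, and -2.29 on C2 (8.96-fold higher with the floor), and Prrx2, above background on neither C-type array, was at least 1.50-fold higher. Of the 7 calls on this list, 1 remained without B1, 2 without B2, 7 without C1 and 4 without C2. None of the 14 tested HoxA and HoxB genes passed, nor did any of the 3 tested HoxC and HoxD genes. At an unadjusted limma p under 0.05 there were 5 of these 17, against 2462 of all 15037 genes.

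Myofibroblast and peribronchial markers were called in both directions, smooth muscle genes only as lower in B-type, and no pericyte gene was called. Of 16 myofibroblast and peribronchial markers, 3 were higher in B-type (Fgf18, the TGF-beta-induced matrix protein Tgfbi at 4.56-fold, and Aspn) and 1 lower (Enpp2), a called share of 25.0% against 3.56% of all genes. Tgfbi read 5.72 and 5.53 in B-type and 3.80 and 3.07 in C-type. Of the 4 calls on this list, 0 remained without B1, 0 without B2, 4 without C1 and 3 without C2. Acta2, smooth muscle actin, read 0.84 and 0.85 in B-type and 0.47 and 1.12 in C-type and did not pass. Of 9 smooth muscle genes, desmin (Des) and the myosin light chain kinase Mylk were lower in B-type, 22.2% of the list, Des with -1.53 and -2.61 in B-type and 0.16 and 1.44 in C-type. Mylk read 1.36 and 0.92 in B-type and 4.27 and 4.50 in C-type on the reported probe (9.47-fold lower, limma adjusted p = 0.00304), but its other kept probe gave -0.58 on the log2 scale, so the probes disagree in size. The summed linear signal of the smooth muscle list was 14.2 on B1 and 13.1 on B2, against 33.1 on C1 and 37.4 on C2, in multiples of the 75th percentile. Most of this gap came from the reported Mylk probe, so the sums do not describe the list as a whole. Of the 2 calls on this list, 1 remained without B1, 0 without B2, 2 without C1 and 1 without C2. None of the 10 pericyte genes passed in limma (4 at an unadjusted p under 0.05); Pdgfrb read 4.21 and 3.88 in B-type and 3.25 and 3.86 in C-type. In these bulk samples fewer cells of a type and less RNA per cell cannot be told apart. None of 17 immediate early genes, which rise during tissue dissociation, and none of 10 proliferation genes passed in limma, where 5 and 4 had an unadjusted p under 0.05. For these counts and that of the pericyte genes, the background was 2462 of all 15037 genes.

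Of 59 tested genes on 12 lists of other lung cell types, 10 passed the test, 16.9% against 3.56% of all genes. The surfactant gene Sftpc of alveolar type 2 cells had log2 signals of -1.87 and -0.97 in B-type, against 3.11 on C1 and 1.23 on C2, 12.1-fold lower in B-type (limma adjusted p = 0.0253). It was the one call among 8 tested genes of that cell type. Their summed linear signal was 10.1 on B1 and 13.0 on B2, against 19.5 on C1 and 12.1 on C2. The filter left out Napsa, which was not above background on any of the 4 arrays, and Slc34a2, above it on 1 C-type array only. Slc34a2 read -5.71 and -6.28 on B1 and B2, against -1.67 on C1 and -3.34 on C2. The part of alveolar type 2 RNA in the C-type differences was not tested. Of 4 tested mesothelial genes, Aldh1a2 and Rspo1 were higher and Upk1b lower in B-type, and the defining markers Msln, Upk3b and Lrrn4 were not above background on any of the 4 arrays. Wt1 read -2.90 and -0.32 in B-type and -4.18 and -5.55 in C-type and did not pass. The summed linear signal of this list was 6.62 on B1 and 6.11 on B2, against 1.71 on C1 and 1.08 on C2. Among 8 blood endothelial genes, Tek, the receptor for angiopoietins, and Ramp2, a subunit of the adrenomedullin receptor, were higher in B-type; Ramp2 read 2.15 and 1.78 in B-type and 0.13 and -0.77 in C-type, and Tek read 1.68 and 1.66 in B-type and -1.42 and -2.36 in C-type (11.8-fold, limma adjusted p = 0.00508). Cdh5 and Tie1 were above background on no more than 1 array of either type, and the list summed to 12.7 on B1 and 10.7 on B2, against 5.94 on C1 and 6.08 on C2. The nerve growth factor receptor Ngfr (5.38-fold with the floor) and Mbp (4.63-fold), both calls of the 5 tested on the Schwann and neural list, were higher in B-type on the reported probes, while the other kept probe of Mbp gave -1.01, the opposite sign. Ngfr was above background on C1 but not on C2, and Mbp read 0.24 and 0.35 in B-type and -1.48 and -2.36 in C-type on the reported probe. Tppp3 of the airway list read 0.85 and 0.34 in B-type and -1.15 and -1.30 in C-type, 3.53-fold higher, with 1 call of 7. No gene of the lymphatic, alveolar type 1, macrophage and dendritic, T and NK, B cell or erythroid lists passed in limma. At an unadjusted limma p under 0.05 there were 4 of their 24 genes, against 2462 of all 15037 genes. Ly6g, given above, was the one call of the neutrophil list. Without B1 or without B2, none of Tek, Sftpc, Ngfr and Tppp3 was called; Tek, Sftpc and Ngfr were called without C1, and Tek and Sftpc without C2.

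Among called genes with a plain symbol that were measured on all 4 arrays, some of the greatest differences with B-type higher were in Ly6a, the ferritin receptor Scara5, Thy1, Ly6c1 and the protease Prss23, and the greatest with B-type lower were in Npnt, Adra1a, Gja5, Rgs2, Itga8 and Mtss1, a membrane-bending protein; this order was added after values were seen. Scara5 read 4.10 and 4.15 in B-type and 0.45 and -1.72 in C-type, 27.1-fold higher in B-type (limma adjusted p = 0.0101). Mtss1 read -2.82 and -2.85 in B-type and 1.55 and 2.12 in C-type, 25.4-fold lower (limma adjusted p = 0.00276). Prss23 read 5.55 and 5.58 in B-type and 2.53 and 0.39 in C-type, 17.2-fold higher (limma adjusted p = 0.0185). The 6 genes lower in B-type remained called without each of the 4 arrays in turn, whereas the 5 named as higher in B-type remained called without C1 or without C2 and lost the call without B1 or without B2.

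The 12 highest and 12 lowest fitted log2 differences of called genes with a plain symbol include probes below background in the dimmer type, whose order among themselves or against measured genes is not known. One of the 12 highest was Efhd1, a mitochondrial calcium-binding protein, with log2 signals of 3.83 and 3.96 on B1 and B2, against -3.66 and -5.40 on C1 and C2, neither above background, at least 175-fold higher in B-type (limma adjusted p = 0.00158). Lrrn4cl, a leucine-rich repeat membrane protein, read 2.30 and 2.54 in B-type and -2.96 and -4.95 in C-type (49.5-fold with the floor, limma adjusted p = 0.00367). The LIM homeobox gene Lmx1a, known from midbrain dopamine neurons, read 0.56 and 0.04 in B-type and was not above background in C-type, at least 15.5-fold higher (limma adjusted p = 0.00158). Aif1l, an actin-binding protein, the sphingomyelinase Smpd3 and Cmah, the hydroxylase of sialic acid, were above background on neither C-type array and at least 26.4-fold, 12.4-fold and 37.8-fold higher, though another probe of Cmah gave a log2 difference of 1.42. Cadm3, a neuronal adhesion molecule, read 3.20 and 2.98 in B-type, against -0.79 on C1 and -3.62 on C2 (37.2-fold with the floor). The rest of the 12 were Plau, Dpp4, Ly6f, Ccl8 and Ackr2. None of the 12 was above background on C2, and 6 of them were not above it on C1 either. Of the 12 calls, 7 remained without B1, 6 without B2, 12 without C1 and 11 without C2.

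One of the 12 lowest was Prom1, the gene of the stem cell antigen CD133, with log2 signals of -6.10 and -4.10 on B1 and B2, neither above background, against 1.74 and 1.73 on C1 and C2, at least 51.1-fold lower in B-type (limma adjusted p = 0.00508); another probe gave a log2 difference of -3.66. The sodium channel Scn3a was not above background in B-type and read 1.29 and 1.50 in C-type, at least 40.4-fold lower (limma adjusted p = 0.000977). Gja5, the gap junction protein connexin 40, read -1.11 and -0.75 in B-type and 3.78 and 4.58 in C-type, 34.5-fold lower (limma adjusted p = 0.00194). Rgs2, which shortens signals of Gq-coupled receptors such as the adrenergic receptor above, read 0.99 and 1.55 in B-type and 6.12 and 6.37 in C-type, 31.4-fold lower (limma adjusted p = 0.00158). Nebl, a nebulin-family protein of actin filaments, Ppp1r3a, a glycogen-targeting subunit of protein phosphatase 1, and Shisal1 were at least 34.9-fold, 24.1-fold and 21.1-fold lower in B-type, where they were not above background, against 1.29 and 1.38, 0.65 and 0.72 and 0.18 and 0.73 on C1 and C2. The uroplakin Upk1b and the polysialyltransferase St8sia4 were at least 12.2-fold and 7.87-fold lower, with -0.40 and -0.27 and -0.80 and -1.13 on C1 and C2. Npnt, Adra1a and Il34 complete the 12. All 12 were above background on both C-type arrays, and C1 and C2 differed by no more than 0.80 log2 units in any of them. Of the 12 calls, 11 remained without B1, 9 without B2, 12 without C1 and 12 without C2.

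The C-type arrays were set against each other as a description, since each is 1 sample. C1 was at least 2-fold above C2 for 1766 genes and C2 at least 2-fold above C1 for 1044; 694 of the first set were not above background on C2 and 215 of the second not above background on C1. Of genes with a plain symbol above background on both C-type arrays, the widest gap with C1 higher was in Emilin2, an extracellular matrix glycoprotein, with 5.26 and 5.17 in B-type, against 1.70 on C1 and -2.55 on C2; it narrowly missed the test between the types (limma adjusted p = 0.0502). Wide fitted gaps with C1 higher were also seen in Acp5 (1.80 on C1 and -3.75 on C2), Aldh1a3, Snhg7, Mir17hg, Epb41l4b and Fzd5, all not above background on C2, so that their order is not known. Acp5, a lysosomal acid phosphatase, read 2.48 and 2.24 in B-type, near C1. With C2 higher, wide fitted gaps were seen in Lfng (-5.04 on C1 and 1.68 on C2), a modifier of Notch receptors, Enkur, Zfp454, Pomc, Rxra and Trmo. The retinoid X receptor Rxra, the widest such gap among genes above background on both, read -1.53 and -1.45 in B-type, against -2.71 on C1 and 2.79 on C2. Its 1 other kept probe had the opposite order, with -1.23 on C1 and -2.96 on C2 (log2 difference of 0.34 for B-type minus C-type). The other probe of Acp5 repeated its gap (1.69 on C1 and -3.69 on C2). Other probes of Epb41l4b, Fzd5 (-1.42 and -1.78) and Zfp454 (-3.50 and -3.35) did not. None of these 13 genes passed the test between the types. Among the called genes, C1 lay between the B-type mean and C2 for 175 of the 285 higher in B-type and 177 of the 250 lower in B-type. The median log2 difference of the 285 genes was 2.40 from C1 and 2.70 from C2, and that of the 250 genes -2.38 from C1 and -2.60 from C2.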

How the data were processed

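Each of the 8 one-colour arrays carried amplified, Cy3-labelled material from 1 sample. Intensity per spot, with background subtracted, was taken from the scanner files, which Agilent Feature Extraction 10.10.1.1 wrote, per the file headers; spots called outliers were dropped, spots of a probe averaged, and 28 of 55681 probes with no spot left on an array were omitted. The authors' deposited value table holds log2 values that equal log2 of that signal minus 1 constant per array, within 0.02 for 100% of the 55653 probes compared, with a median of 4.84 in every column; it served as an alternative, and its scale, centring and direction are thus known. Probes were named through a RefSeq table of GRCm38.p6 (31927 of 55653 kept probes, 22734 genes; 818 probes list several genes). Probe coordinates in the files belong to mm9 and were not used here.

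Log2 signals were scaled by each array's 75th percentile over non-control spots. A probe was kept if well above background on both B-type or both C-type arrays, and a gene was represented by its kept probe with the highest mean over the 8 arrays. Differences (B-type minus C-type) were tested in R 4.3.3 by limma 3.58.1 (group means of all 8 arrays by lmFit, then contrasts.fit and eBayes; 4 residual and 3.17 prior degrees of freedom), with Benjamini-Hochberg adjustment over all genes; the code was tested on simulated data. "At least" marks a probe not above background on either array of the dimmer type: the brighter mean is set against, per array, either the probe's own signal or the dimmest signal called well above background, whichever is higher. "With the floor" is the same value where 1 of the 2 arrays measured it. With 2 arrays a type, the number of arrays limits the precision. No columns of other series were present. Replicate numbers come from the titles; same-numbered B-type and C-type arrays did not deviate together (r = 0.046 across genes), so no pairing was assumed.

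Named genes are the sorting antigens, the called genes with the 12 greatest differences each way that have a plain symbol and separated arrays, up to 4 called genes a direction per list with other list members where useful, and 6 genes each way between C1 and C2; genes ranked among measured probes only were added after values were seen. The members and the 47 lists were chosen with earlier results of these data known. Alternatives covered scaling, background correction, the filter, the probe, the arrays in the fit, the spread and leaving out each array. Python 3.11.15, numpy 2.4.6, pandas 2.3.3 and matplotlib 3.10.9 were used.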

Additional observations from a re-analysis of the deposited data

How the results depend on the processing

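The 535 calls (285 higher and 250 lower in B-type) stayed within 1.5 times of that number under median scaling, a percentile over detected probes, quantile normalization, normexp, the authors' value table, the mean over probes, a trended robust prior and the replicate block (392 calls, 193 higher and 199 lower in B-type). Of the 535 genes, 372 remained called with the block and 352 with normexp. Requiring all 4 compared arrays above background gave 342 calls (155 higher), no filter 265 (122 higher, 143 lower), the 4 compared arrays alone 333 (167 higher, 166 lower), the 6 fibroblast arrays 1092 (603 higher, 489 lower) and array weights 945 (561 higher, 384 lower). Leaving out 1 array gave 60 to 1063 calls, 21 to 742 of them higher and 38 to 321 lower in B-type. Genes at least 2-fold apart within a type numbered 112 in B-type and 1835 in C-type where all 4 arrays were above background, against 332 and 2810 as reported. Some alternatives could not turn the direction of a gene. The fits on 4 or 6 arrays, array weights, the trended prior and the replicate block keep the same difference of means. Leaving out 1 array cannot reverse a gene whose arrays do not overlap between the types. Of 156 genes named in the text, 123 were called. None of these turned in direction under the 17 alternatives, of which the filter on all 4 arrays gave a value for 85 of them and each other one for all 123; without B1 and without B2, 88 and 91 lost the call, and without C1 and without C2, 6 and 46.

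Some uncalled genes turned in direction. Over the fits that left out 1 array in turn, the log2 difference ran between -0.27 (without C1) and 0.38 in Acta2, between -3.85 and 2.61 (without C2) in Enkur, between -1.18 (without C2) and 3.92 in Epb41l4b, between -0.35 (without C2) and 4.73 in Fzd5, between -3.44 and 3.27 (without C2; 0.011 without B2) in Lfng, between -0.15 and 0.041 (without C2) in Mcam, between -1.65 (without C2) and 3.47 in Mir17hg, between -2.63 (without C1) and 3.20 in Pomc, between -4.28 and 1.22 (without C2) in Rxra, between -1.18 (without C1) and 3.83 in Trmo and between -1.21 (without C1) and 5.09 in Zfp454. Normexp gave 0.068 in Mcam, -0.14 in Mir17hg and -0.59 in Pomc, and the filter on all 4 arrays, which left another probe, gave -0.23 in Epb41l4b and -0.67 in Fzd5. Other causes were not tested. The slide as a block was not run: B-type and C-type arrays share 1 slide. Signals near background on C2, where 1386 tested genes were not above it, limit what can be said of genes low in C-type.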

Other observations

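The A-type fibroblasts, sorted with the same antibody panel and hybridised on the same slide, often lay between the B-type and C-type fibroblasts. The A-type mean was between the B-type and C-type means for 476 of the 535 called genes (89.0%), against 44.0% of all 15037 genes; the called genes were chosen for a wide gap between B-type and C-type, so these shares are not a like-for-like comparison. Of the 285 genes higher in B-type, 243 had an A-type mean nearer to B-type and 42 nearer to C-type. Of the 250 genes lower in B-type, 177 were nearer to B-type and 73 nearer to C-type. The A-type arrays lay in row 2 of the slide with the B-type arrays, and the C-type arrays in row 1. A shared row and a likeness of A-type to B-type therefore cannot be told apart.

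Single genes show the range. Npnt had a mean log2 signal of 3.09 in A-type, against 0.14 in B-type and 6.20 in C-type. Itga8 had 2.64 in A-type, with 0.12 in B-type and 5.05 in C-type. Ly6a was near its B-type level at 6.18 in A-type, 6.66 in B-type and 1.75 in C-type. Thy1 was not: it had -0.29 in A-type, 4.77 in B-type and 0.13 in C-type. Tnc had -5.94 in A-type, -5.86 in B-type and -2.22 in C-type. It was not above background in B-type. The A-type mean was below the dimmest signal called well above background on A1 (-4.23) and on A2 (-3.91). Its A-type and B-type levels therefore cannot be compared.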
